A study of Mus musculus with 17 samples.

Results

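NRF2, encoded by Nfe2l2, is a transcription factor that is held in the cytoplasm by KEAP1 and degraded in unstressed cells. Oxidants and electrophiles modify KEAP1, NRF2 then enters the nucleus, pairs with small MAF proteins and switches on genes that make glutathione, reduce thioredoxin, detoxify quinones and supply NADPH. In lung this program is studied above all in airway and alveolar epithelium, which meets inhaled oxidants, and Nqo1 and Hmox1 are widely used readouts of it. The 10 genes described here are Nfe2l2, its inhibitor Keap1, and the target genes Nqo1, Hmox1, Gclc, Gclm, Srxn1, Txnrd1, Slc7a11 and G6pdx. They were taken by symbol from the 31245 genes of the count table, where each of the 10 was found and each passed the filter on low counts.

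Lung RNA of 17 mice was sequenced to ask how perfluorooctanoic acid (PFOA), a long-chain perfluoroalkyl acid and known activator of the nuclear receptor PPARα, affects lung gene expression. The mice carried 1 of 3 genotypes, labelled wildtype (WT), PPARa KO (KO, without mouse PPARα) and hPPARa KI (KI, with human PPARα). WT mice were purchased Sv/129 animals, and KO and KI mice were bred from pairs heterozygous for the null and the human PPARα allele, so that genotype and source cannot be told apart between WT and the other 2 genotypes. From 6 weeks of age all groups ate a custom diet modelled on what adults in America eat and drank sucrose water, either alone (vehicle) or with PFOA at 6.2 μg/mL (labelled Hi-PFOA), for 14 weeks. There were 2 WT vehicle libraries and 3 in each of the groups WT PFOA, KO vehicle, KO PFOA, KI vehicle and KI PFOA, named here by the mouse numbers in the labels. All KO mice were female, and each WT and KI group had males and females.

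Totals per library ranged from 4116118 to 9237356 estimated counts (median 7524757), so that 3 counts stand for 0.319 to 0.691 CPM, the count scaled to library size with edgeR's TMM factors. WT vehicle 122 and KO vehicle 137 stood apart, with 65.3% and 61.3% of their counts in protein-coding genes against 74.4% to 80.4% in the others, and values without them are given where they matter. Markers of alveolar type 1 and type 2, endothelial, club and ciliated cells were present in every group, and the summed level of 3 liver markers had a group median of at most 2.18 CPM. Ppara itself averaged 6.67 CPM in WT vehicle, 10.4 CPM in KO vehicle and 14.4 CPM in KI vehicle libraries. Its counts are of the whole gene and the removed part is not given in the sources used here, so they do not check the KO label, and the groups are called libraries labelled KO or KI below where a direction between genotypes is drawn.

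Of the 10 genes, Nfe2l2 had the highest level and Keap1 the steadiest. Levels were divided by the length of all annotated exons of a gene, which can exceed that of the transcripts made in lung. Per kilobase of this length, Nfe2l2 led with a mean of 27.0 CPM per kb over the 17 libraries, at percentile 95.2 of 26139 genes with a length. It was followed by Gclc (16.4), Txnrd1 (9.90), G6pdx (8.71), Keap1 (7.77), Hmox1 (6.34), Gclm (4.86) and Srxn1 (4.39), all in CPM per kb. Nqo1 (1.62 CPM per kb) and Slc7a11 (0.204 CPM per kb, percentile 12.1) were far lower, and rested on only 7 to 38 and 6 to 46 counts per library. The order of these last 2 rests on their lengths, 1553 bases for Nqo1 and 13922 for Slc7a11, since their mean levels were 2.51 and 2.85 CPM. The ranges over libraries of neighbours in the order per kilobase overlapped, except those of Nqo1 and Slc7a11. Across libraries the highest level was 1.36 times the lowest for Keap1 and 1.77 times for Nfe2l2, but 4.98 times for Nqo1 and 10.8 times for Slc7a11.

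NRF2 binds antioxidant response elements, whose core was searched as TGACNNNGC on both strands, from 250 bases before to 50 bases after each start, in the RefSeq promoters of GRCm38.p6. Promoters were held for 8 of the 10 genes, all but Hmox1 and Gclc. The core was found in 5 of their 10 windows, 1 in each of 5 genes, against 12.4% of all 32817 windows. The 5 stretches are shown as the matches to this spelling of the core within these windows. Sites outside the windows and other spellings of the core were not searched, so the stretches are not a full list of what NRF2 could read. Capitals mark the match, read 5′ to 3′ on the gene's strand, and a match on the opposite strand reads GCNNNGTCA here.
Nfe2l2, chr2:75704885-75704913, minus strand: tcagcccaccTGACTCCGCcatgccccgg
Srxn1, chr2:152105542-152105570, plus strand: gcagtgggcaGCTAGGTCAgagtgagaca
Gclm, chr3:122245413-122245441, plus strand: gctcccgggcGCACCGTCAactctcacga
Txnrd1, chr10:82859104-82859132, plus strand: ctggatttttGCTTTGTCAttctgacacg
G6pdx, chrX:74428919-74428947, minus strand: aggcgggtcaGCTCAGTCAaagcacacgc
Starts here are those of the RefSeq promoters. The match lies 240 to 232 bases before the start in Nfe2l2, 134 to 126 in Gclm, 92 to 84 in Txnrd1 and 57 to 49 in G6pdx, and at bases 29 to 37 after the start in Srxn1. In Srxn1, Txnrd1 and G6pdx the start used lies inside the gene span given below, and so does the match. Srxn1, the sulfiredoxin that repairs overoxidized peroxiredoxins, was the only one of the 8 with the related AP-1 site TGAGTCA, which 5.20% of all windows hold. It has this site at 102 to 96 and at 45 to 39 bases before its start, and its upstream stretch chr2:152105274-152105515, plus strand, is shown with both in capitals.
Srxn1 upstream: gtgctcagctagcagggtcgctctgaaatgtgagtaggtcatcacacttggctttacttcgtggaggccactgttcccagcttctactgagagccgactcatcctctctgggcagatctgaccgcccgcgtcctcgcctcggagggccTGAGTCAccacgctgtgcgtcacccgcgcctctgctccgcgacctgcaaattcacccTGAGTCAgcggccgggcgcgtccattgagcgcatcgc
A match is a description of letters, and no binding was measured in this series.

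**Figure D1:**
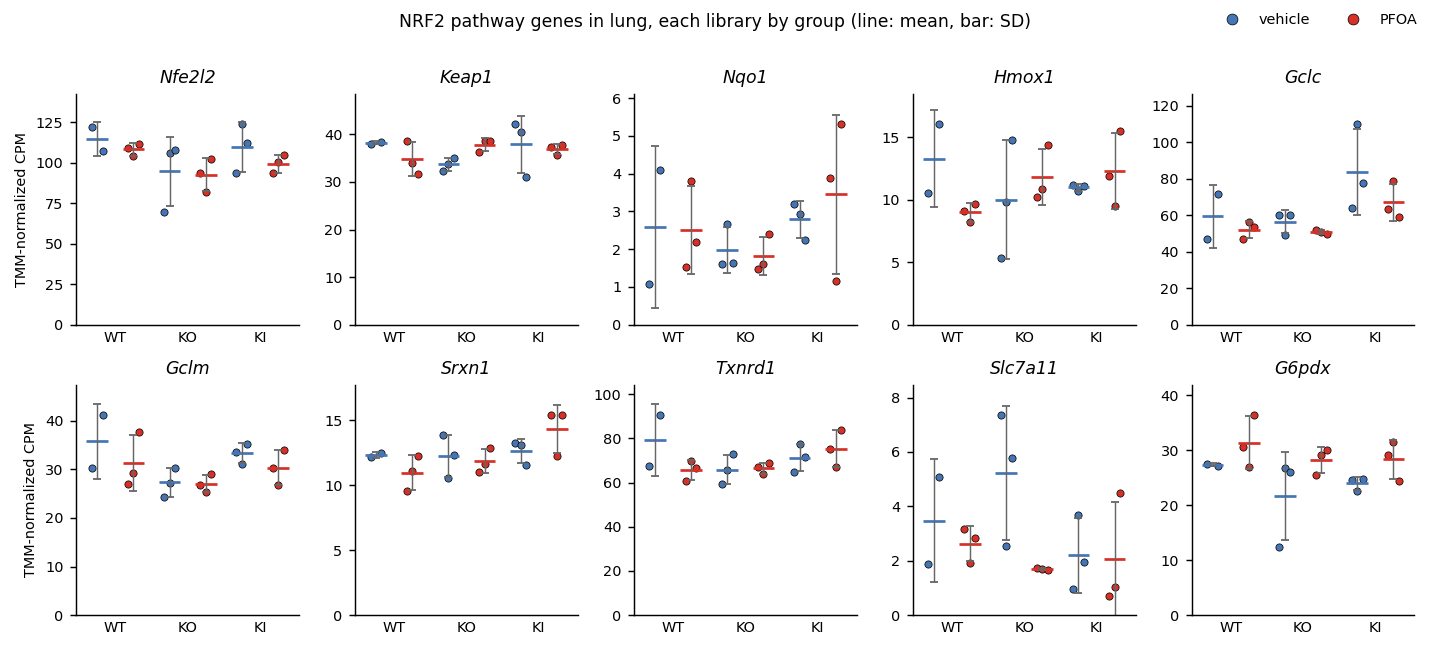
TMM-normalized CPM (vertical axis, from 0, with its own scale in each panel) of the 10 genes in 17 lung libraries, by genotype and exposure. Points are libraries, horizontal lines group means and bars the SD. Exposed and vehicle points lie at like heights in most panels, and the highest Gclc point, at 110 CPM, is a KI vehicle library.

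PFOA did not raise the NRF2 target genes to a detectable degree in any genotype. A call needed an edgeR adjusted p below 0.2 together with a change of more than 2-fold, and 0 of the 10 genes were called in WT, KO, KI or over the 3 genotypes together, nor in the differences of the KO or KI effect from the WT effect. In each of these comparisons 0.0% of the 26946 genes tested were called. At an unadjusted p under 0.05 the numbers were 0 of 10 in WT (7.35% of all genes), 1 of 10 in KO (9.79%), 0 of 10 in KI (2.59%) and 1 of 10 over the 3 genotypes (8.27%). DESeq2 called 0 of the 10 in each as well, and 24, 68, 1 and 26 genes in all. The fit over the 3 genotypes uses 9 exposed and 8 vehicle libraries and gives the narrowest limits. There the 95% interval of the log2 fold change stayed between -0.45 and 0.52 for each gene but Nqo1 and Slc7a11, so that a 2-fold rise or fall lies outside the interval of 8 genes. In bulk lung, fewer cells of a type and less RNA per cell cannot be told apart, and these statements are on the level in the whole tissue.

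Nfe2l2 (chr2:75675513-75704641) and its inhibitor Keap1 (chr9:21229730-21239361, both mm10) had intervals close around 0. Nfe2l2 was at 122 and 107 CPM in WT vehicle and at 109, 104 and 111 CPM in WT PFOA libraries. In KO it was at 69.8, 106 and 108 CPM on vehicle and at 93.4, 81.9 and 103 CPM on PFOA, and in KI at 93.6, 124 and 112 CPM on vehicle and 93.4, 100 and 105 CPM on PFOA. Exposed and vehicle libraries overlapped in every genotype, and the low value of 69.8 CPM came from KO vehicle 137. Over the 3 genotypes the log2 fold change with PFOA was -0.09 (SE 0.09, 95% interval -0.28 to 0.10, edgeR adjusted p = 0.819). For Keap1 it was 0.01 (SE 0.08, 95% interval -0.16 to 0.17, edgeR adjusted p = 0.989). Its KO PFOA libraries, at 36.3, 38.6 and 38.6 CPM, lay above those on vehicle, at 32.2, 33.8 and 35 CPM, a separation seen in that direction for 6.82% of all genes. Its log2 fold change in KO was 0.17 (95% interval -0.12 to 0.45). Exons of Keap1 overlap the antisense gene Gm16754, and how the counting used the strand is not stated.

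Nqo1 (chr8:107388225-107403206), the quinone reductase, and Hmox1 (chr8:75093621-75100589), the heme oxygenase, are the genes most often read as signs of NRF2 activity. Nqo1 was at 1.07 and 4.09 CPM in the WT vehicle libraries and at 1.52, 3.80 and 2.18 CPM in WT PFOA. In KO it was at 1.61, 2.67 and 1.63 CPM on vehicle and 1.46, 1.60 and 2.39 CPM on PFOA, and in KI at 3.18, 2.93 and 2.25 CPM on vehicle and 3.88, 1.16 and 5.31 CPM on PFOA. The spread within a group was in KI PFOA almost as large as the whole range across groups, and the log2 fold change over the 3 genotypes, 0.06, had an interval of -0.58 to 0.71. A rise of Nqo1 of up to 1.23 on the log2 scale in WT and 1.39 in KI was within the 95% intervals and so is not excluded.

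Hmox1 had a log2 fold change below 0 in WT that did not pass the test. It was at 10.5 and 16.1 CPM on vehicle and at 9.12, 8.19 and 9.64 CPM on PFOA. The PFOA libraries of WT all lay below those on vehicle, as they did for 10.9% of all genes. The log2 fold change was -0.56 (95% interval -1.21 to 0.10, edgeR adjusted p = 0.720), and without WT vehicle 122 it was -0.22. In the libraries labelled KO, Hmox1 was at 5.30, 9.85 and 14.8 CPM on vehicle and 10.2, 10.9 and 14.4 CPM on PFOA, and in KI at 11.1, 10.7 and 11.1 CPM on vehicle and 11.9, 9.51 and 15.5 CPM on PFOA. The groups overlapped in both. The PFOA effect in KO minus that in WT was 0.76 on the log2 scale (95% interval -0.12 to 1.64, edgeR adjusted p = 0.683) and that in KI minus that in WT was 0.72 (95% interval -0.16 to 1.60, edgeR adjusted p = 0.999), so a difference between genotypes was not shown.

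No rise with PFOA was detected in the glutathione genes either. Gclc (chr9:77754535-77794485) and Gclm (chr3:122245557-122270732) encode the catalytic and the modifier subunit of glutamate-cysteine ligase, the rate-limiting enzyme of glutathione synthesis. Gclc was at 47.0 and 71.6 CPM in WT vehicle and 46.9, 56.0 and 53.3 CPM in WT PFOA libraries, and Gclm at 30.2 and 41.3 CPM on vehicle and 27.0, 29.2 and 37.8 CPM on PFOA. Both subunits thus overlapped between exposures in WT. Over the 3 genotypes the log2 fold change was -0.23 for Gclc (95% interval -0.45 to 0.00, edgeR adjusted p = 0.608) and -0.11 for Gclm (95% interval -0.30 to 0.08, edgeR adjusted p = 0.773). The exons of Gclm overlap Gm17494 and the pseudogene Gm6061, with which its reads could be shared.

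Slc7a11 (chr3:49892526-50443614), the cystine importer xCT that feeds glutathione synthesis, showed the widest exposure difference of the 10. In the libraries labelled KO it was at 7.37, 2.53 and 5.78 CPM on vehicle (32, 18 and 46 counts) and at 1.73, 1.70 and 1.64 CPM on PFOA (13, 16 and 11 counts). All 3 exposed libraries lay below all 3 vehicle libraries, as they did for 5.99% of all genes, and the highest value was that of KO vehicle 137. The log2 fold change was -1.60 (SE 0.61, 95% interval -2.87 to -0.32, unadjusted p = 0.0169, edgeR adjusted p = 0.483). Without KO vehicle 137 it was -1.29 and edgeR's unadjusted p was 0.0639. With a code in the library names as a covariate it was -0.21. All KO PFOA libraries carry the same code and no KO vehicle library does, so the code and the exposure cannot be told apart within KO. In WT, Slc7a11 was at 1.86 and 5.08 CPM on vehicle and 3.17, 1.90 and 2.83 CPM on PFOA, and in KI at 0.955, 3.69 and 1.97 CPM on vehicle and 0.685, 1.03 and 4.47 CPM on PFOA. The exposures overlapped in both, and the KO effect minus the WT effect was -1.22 (95% interval -3.12 to 0.67, edgeR adjusted p = 0.766).

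Srxn1 (chr2:152105516-152111376) and Txnrd1 (chr10:82833951-82897712), the thioredoxin reductase, serve the thioredoxin and peroxiredoxin arm. Srxn1 was among the steadiest of the set, at 9.50 to 12.4 CPM in WT, 10.6 to 13.8 CPM in KO and 11.5 to 15.4 CPM in KI libraries, and Txnrd1 ranged from 59.2 to 90.7 CPM over all 17. Their log2 fold changes with PFOA over the 3 genotypes were 0.00 for Srxn1 (95% interval -0.21 to 0.22) and -0.04 for Txnrd1 (95% interval -0.22 to 0.13). Neither gene was past an unadjusted p of 0.05 in any genotype by edgeR.

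G6pdx (chrX:74409483-74429194) encodes the X-linked glucose-6-phosphate dehydrogenase that opens the pentose phosphate pathway and supplies NADPH. In the main edgeR fit it was the only gene of the 10 with an unadjusted p under 0.05 over the 3 genotypes. DESeq2 had 2 of the 10 under that p. G6pdx was at 27.6 and 27.2 CPM in WT vehicle and 30.7, 27.0 and 36.5 CPM in WT PFOA libraries. In KO it was at 12.4, 26.7 and 26 CPM on vehicle and 25.5, 29.2 and 30.1 CPM on PFOA, and in KI at 24.7, 22.7 and 24.7 CPM on vehicle and 29.1, 31.5 and 24.5 CPM on PFOA. Exposed libraries were mostly higher, but the exposures overlapped in each genotype, and the value of 12.4 CPM is that of KO vehicle 137. The log2 fold change over the 3 genotypes was 0.27 (SE 0.12, 95% interval 0.02 to 0.52, unadjusted p = 0.0352, edgeR adjusted p = 0.573), in a direction that 3.80% of all genes share at that p. It was 0.19 without KO vehicle 137 and 0.16 with the protein-coding share as a covariate. Exons of G6pdx overlap those of Ikbkg on the other strand.

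**Figure D2:**
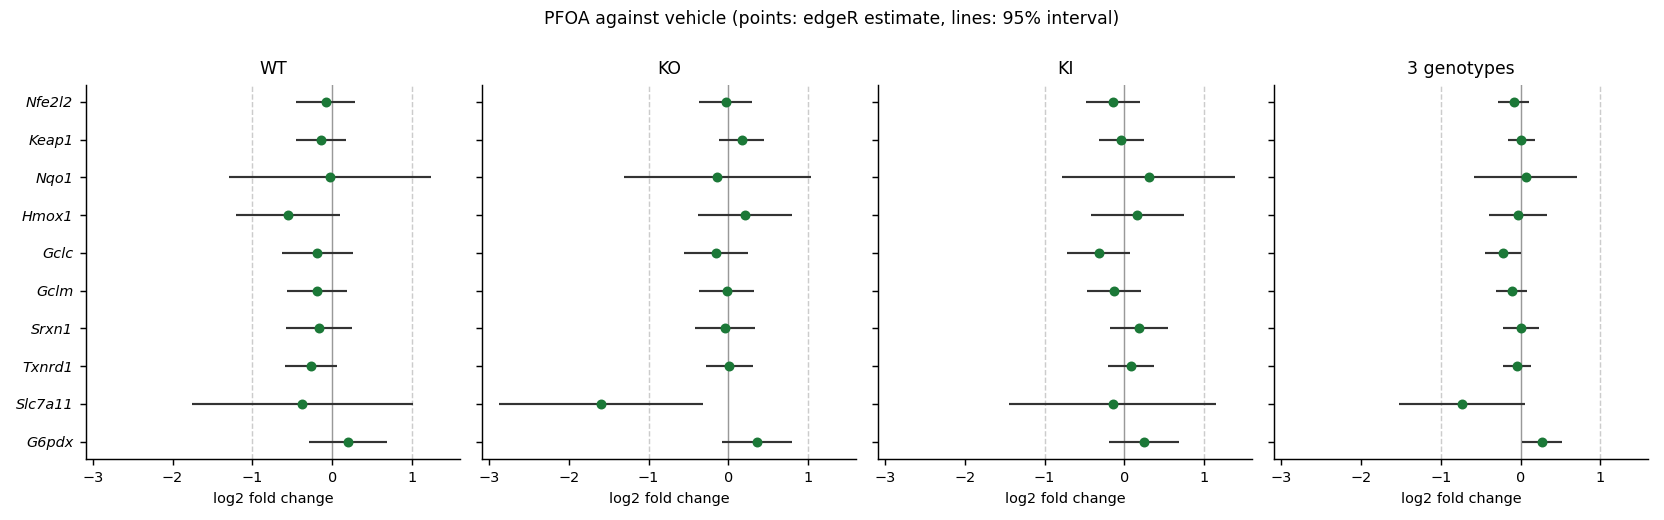
Log2 fold change with PFOA (horizontal axis, 0 marked by a solid line, 2-fold by dashed lines) for the 10 genes in WT, KO, KI and over the 3 genotypes. Points are edgeR estimates and lines 95% intervals. Most intervals cross 0, the intervals of Nqo1 and Slc7a11 are the widest, and that of Slc7a11 in KO lies from -2.87 to -0.32.

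As a group, the 10 genes had a median log2 fold change of -0.18 in WT (all genes 0.04), -0.03 in KO (all genes -0.03), 0.02 in KI (all genes 0.01) and -0.04 over the 3 genotypes (all genes -0.01). In WT 9 of the 10 were lower on PFOA, all but G6pdx, while 53.3% of all genes were higher, and 4 of 10 were higher in KO (46.9% of all genes) and 5 of 10 in KI (50.8%). That WT count rests on WT vehicle 122. Without it 5 of the 10 were lower and 5 higher, with a median of 0.01, and without WT vehicle 107 it was 8 lower and 2 higher, with a median of -0.43. Airway markers were also lower on PFOA in WT. The summed level of the 3 club cell markers, secretory cells of the airway lining, was 11430 and 24856 CPM in the WT vehicle libraries and 6751 to 8632 CPM in WT PFOA, and that of the 5 ciliated cell markers 191 and 457 CPM against 117 to 189 CPM. All 3 club cell and all 5 ciliated markers were lower in WT PFOA at an unadjusted p under 0.05 by edgeR, and none was called. They rest on the same WT vehicle libraries and were not read with either left out. Their part in the NRF2 gene values was not tested.

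Between genotypes, 0 of the 10 genes were called in KO against WT, where 2.36% of all genes were called, in KI against WT (1.37%) or in KI against KO (0.00742%), each over both exposures. DESeq2 called 0 of the 10 in each too. At an unadjusted p under 0.05, 2 of 10 were lower in the libraries labelled KO than in WT (5.47% of all genes), 1 of 10 was higher in those labelled KI than in WT (5.66%) and 1 of 10 higher in KI than in KO (2.25%). None of the 10 separated a pair of genotypes without overlap. Of all genes, 1.2% and 1.57% lay above and below WT in every library labelled KO, 0.943% and 1.05% in every one labelled KI, and 0.0705% each way between KI and KO.

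Gclc had the smallest p of the 10 genes between genotypes. In libraries labelled KI it was at 64.2, 110 and 77.6 CPM on vehicle and 63.5, 78.6 and 59.0 CPM on PFOA, against 46.9 to 71.6 CPM in WT and 49.0 to 60.3 CPM in those labelled KO. The KI values were mostly higher, and the highest was that of KI vehicle 116. KI against WT gave a log2 fold change of 0.43 (SE 0.14, 95% interval 0.15 to 0.71, edgeR adjusted p = 0.181), which is under the adjusted p of 0.2 but not over 2-fold. It was 0.50 among vehicle groups, 0.36 among PFOA groups and 0.32 without KI vehicle 116, where edgeR's adjusted p was 0.305. Without WT vehicle 107 it was 0.34, and without WT vehicle 122 it was 0.52. Among female mice it was 0.78, with 2 WT libraries. KI against KO gave 0.49 (SE 0.13, 95% interval 0.22 to 0.76, unadjusted p = 0.00108, edgeR adjusted p = 1.0). The summed level of 4 cardiac muscle markers ranged from 315 to 3875 CPM in WT, from 267 to 1824 CPM in KO and from 539 to 6771 CPM in KI libraries. None of the 4 was called, and 3 were higher at an unadjusted p under 0.05 by edgeR in KI against WT (median log2 fold change 1.87) and in KI against KO (1.74). Their part in the Gclc value was not tested.

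For its partner Gclm the KI against WT log2 fold change was -0.07 (95% interval -0.31 to 0.18). In the libraries labelled KO, Gclm was at 24.4, 27.2 and 30.4 CPM on vehicle and 26.7, 25.4 and 29.0 CPM on PFOA, against 27.0 to 41.3 CPM in WT. The log2 fold change was -0.29 (SE 0.12, 95% interval -0.53 to -0.05, unadjusted p = 0.0215, edgeR adjusted p = 0.266). All KO mice were female, and the part of sex in this value was not tested apart from that of single libraries. It was -0.18 with sex as a covariate and -0.06 among female mice, a fit that leaves 2 WT libraries and leaves out WT vehicle 122, and -0.20 without WT vehicle 122 alone. Nfe2l2 had a log2 fold change of -0.25 in the libraries labelled KO against WT (SE 0.11, 95% interval -0.48 to -0.01, unadjusted p = 0.0384, edgeR adjusted p = 0.341), and -0.16 without KO vehicle 137. With the protein-coding share as a covariate, the edgeR adjusted p in KO against WT was 0.179 for Gclm and 0.196 for Nfe2l2. The other members had log2 fold changes of -0.39 to 0.06 in KO against WT and -0.53 to 0.32 in KI against WT.

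**Figure D3:**
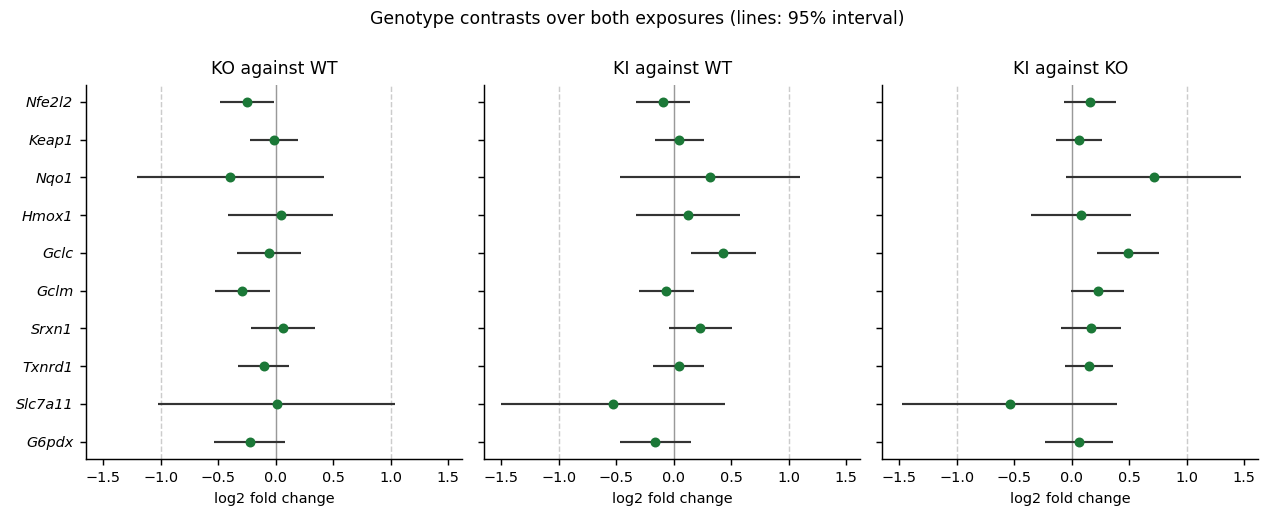
Log2 fold change between genotypes over both exposures (horizontal axis, 0 marked by a solid line, 2-fold by dashed lines) for the 10 genes. Points are edgeR estimates and lines 95% intervals. The Gclc interval lies above 0 in KI against WT (0.15 to 0.71) and in KI against KO (0.22 to 0.76), and no point passes 2-fold.

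The 10 genes varied together only loosely. Over the 17 libraries, Pearson's r of log2 CPM was above 0 in 37 of the 45 pairs, with a median of 0.21, as a description of libraries that share depth and makeup. Hmox1 and Txnrd1 had the highest r, at 0.74, and Slc7a11 and G6pdx the lowest, at -0.51. Both places depend on WT vehicle 122 and KO vehicle 137. Without both libraries these values were 0.58 and -0.23, and the highest was Srxn1 with Txnrd1 at 0.76 and the lowest Txnrd1 with G6pdx at -0.50. Among 13372 genes of at least 5 CPM, those most like Nqo1 were Olfml2a (r = 0.77), Entpd5 (0.75), the carbonyl reductase gene Cbr3 (0.73), Gcfc2 (0.73) and Wdr35 (0.72), with Txnrd1 at rank 31. Those most like Nfe2l2 were Cnot7 (r = 0.92), Slf2 (0.91), the superoxide dismutase gene Sod1 (0.88), Rb1cc1 (0.88) and Ptges3-ps (0.87), and the best placed of the 10 genes was G6pdx at rank 2556, with an r of 0.54 that was -0.14 without WT vehicle 122 and KO vehicle 137.

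A wider set of 63 genes in 8 lists, all of them tested, covered the rest of the pathway. In these lists are NRF2 regulators (12 genes), glutathione synthesis and use (11), the thioredoxin system (4), NADPH supply (5), heme and iron (7), quinone, carbonyl and drug handling (11), exporters (4) and targets of ATF4 (9), a stress factor that shares Slc7a11 with NRF2. With PFOA, 0 of the 63 were called by edgeR or DESeq2 in WT, KO, KI or over the 3 genotypes. At an unadjusted p under 0.05, 1 was higher and 5 lower in WT (3.12% and 4.23% of all genes), 3 higher and 2 lower in KO (3.74% and 6.06%), and 2 higher and 0 lower in KI by edgeR (1.47% and 1.12%). The glutathione list had the lowest median in WT, at -0.53 on the log2 scale against 0.04 for all genes, with 2 of 11 past that p.

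The 3 wider genes with the smallest p in WT were Ptgr1, a reductase of lipid aldehydes and ketones, and the glutathione transferases Gsta4 and Mgst1. Ptgr1 was at 22.5 and 31.8 CPM on vehicle and 13.1 to 15.9 CPM on PFOA, without overlap (as for 10.9% of all genes), with a log2 fold change of -0.88 (SE 0.22, edgeR adjusted p = 0.456). The values were -0.94 for Gsta4 and -0.79 for Mgst1, with edgeR adjusted p of 0.462 and 0.481. Without WT vehicle 122 the 3 values were -0.60, -0.22 and -0.19, and without WT vehicle 107 they were -1.10, -1.42 and -1.21 and past the call, with 1 vehicle library that is assumed to vary like the other groups.

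Slc40a1, which encodes the iron exporter ferroportin, had the smallest p of the wider genes over the 3 genotypes. In WT it was at 5.90 and 11.5 CPM on vehicle and 13.9, 13.9 and 14.6 CPM on PFOA. In KO it was at 9.01, 10.4 and 11.3 CPM on vehicle and 12.3, 14.6 and 16.2 CPM on PFOA, and in KI at 7.31, 7.51 and 13.4 CPM on vehicle and 11.2, 14.4 and 16.1 CPM on PFOA. Exposed libraries lay above vehicle without overlap in WT (as for 11.6% of all genes) and KO (6.82%), and overlapped in KI. The log2 fold change was 0.69 in WT, 0.49 in KO and 0.57 in KI. Over the 3 genotypes it was 0.58 (SE 0.15, 95% interval 0.27 to 0.88, edgeR adjusted p = 0.394), so it was not called. DESeq2 gave an adjusted p of 0.142, under 0.2, but the change was again not over 2-fold. The summed level of 7 alveolar macrophage markers had medians of 224, 211 and 181 CPM on vehicle and 341, 305 and 284 CPM on PFOA in WT, KO and KI. Exposures overlapped in WT (144 to 303 CPM on vehicle, 197 to 344 CPM on PFOA) and in KI (175 to 188 CPM and 186 to 289 CPM), but not in KO. Of these markers, 0 were higher and 1 lower in WT at an unadjusted p under 0.05 by edgeR. In KO 2 were higher and 0 lower, and in KI 1 and 0. Their part in the Slc40a1 value was not tested.

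Over the 3 genotypes the next wider genes were Gpx2 (log2 fold change -0.63, edgeR adjusted p = 0.573) and the exporter Abcc1 (-0.19, edgeR adjusted p = 0.592). In KO they were the pentose phosphate enzymes Taldo1 (0.59, edgeR adjusted p = 0.477) and Tkt (0.47, edgeR adjusted p = 0.483), and the exporter Abcc2, which had 4 to 17 counts on vehicle and 0 to 3 on PFOA. Taldo1 and Tkt were at 0.32 and 0.27 without KO vehicle 137. In KI they were Slc7a5 (0.68) and Slc40a1 (0.57), both at an edgeR adjusted p of 1.0.

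**Figure D4:**
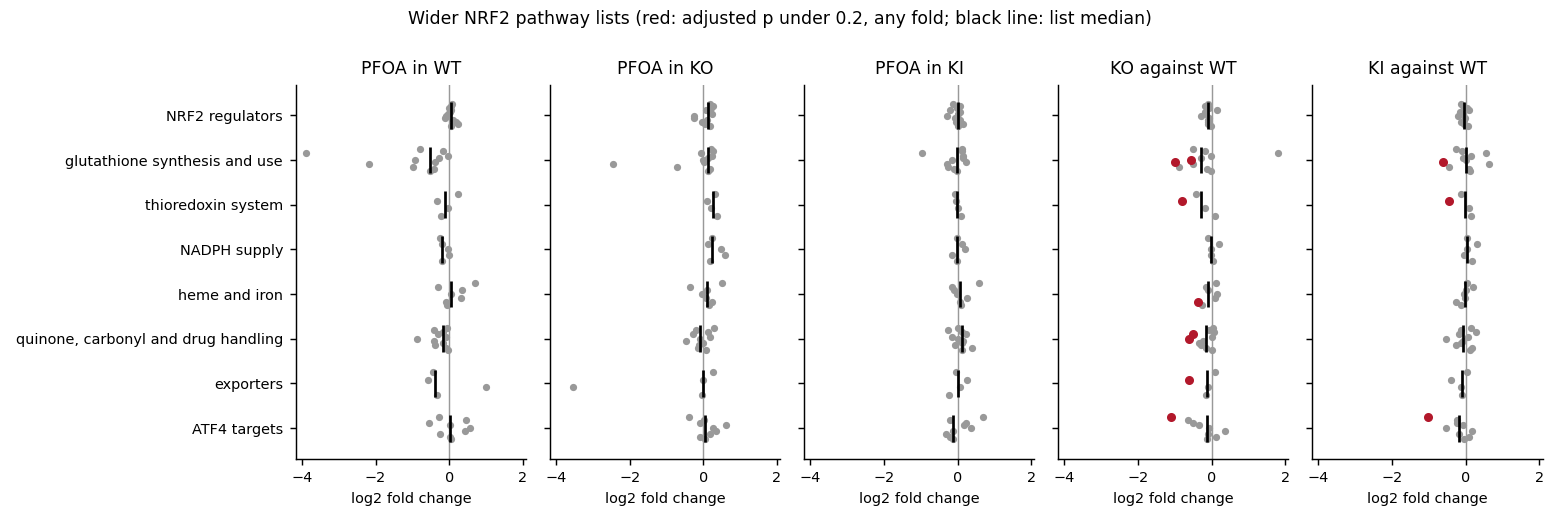
Log2 fold changes (horizontal axis) of 63 wider pathway genes in 8 lists, for PFOA in each genotype and for KO and KI against WT. Points are genes, red where edgeR's adjusted p is under 0.2 at any fold, and black lines list medians. In the 3 exposure panels 0 points are red, while 8 are red and below 0 in KO against WT and 3 in KI against WT.

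More of the wider genes passed the adjusted p between genotypes than with PFOA. At an adjusted p under 0.2 and any fold, 8 of the 63 genes were lower and 0 higher in libraries labelled KO than in WT (5.85% of all genes passed in either direction), and 3 were lower and 0 higher in those labelled KI (2.79%). Past 2-fold, 1 was called in each, Slc7a5, an amino acid importer in the ATF4 list. In KO against WT, 6 of the 63 were called lower among vehicle groups (1.37% of all genes called) and 1 among PFOA groups (1.01%), and in KI against WT 2 (0.857%) and 0 (0.527%). The vehicle contrasts rest on the 2 WT vehicle libraries. Slc7a5 was at 15.9 and 16.8 CPM in WT vehicle, 11.6, 13.3 and 15.8 CPM in WT PFOA, 6.33, 7.60 and 9.17 CPM in KO vehicle and 5.08, 6.11 and 6.28 CPM in KO PFOA libraries. WT and KO did not overlap, and the log2 fold change was -1.12 (SE 0.24, edgeR adjusted p = 0.0140). KI libraries were at 5.34, 5.41 and 5.73 CPM on vehicle and 4.33, 9.12 and 12.9 CPM on PFOA, which overlapped WT, and the log2 fold change was -1.03 (SE 0.23, edgeR adjusted p = 0.0350). With the library-name code as a covariate both calls were lost, at -0.70 and -0.88, and among PFOA groups KI against WT was -0.62 with an edgeR adjusted p of 0.875. The KI call was also lost without WT vehicle 107 or 122, WT PFOA 50, KI vehicle 102, 116 or 135, or KI PFOA 139, at -0.996 to -0.914. Slc7a5 lies in a stretch shared with Gm20388 on the other strand, without exon overlap in the annotation.

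Gsta3, a glutathione transferase, and Prdx6, a peroxiredoxin of alveolar and airway epithelium, came next and were under 2-fold over both exposures, Gsta3 in KO only just. Gsta3 was at 96.3 to 189 CPM in WT and at 52.1 to 72.3 CPM in libraries labelled KO, without overlap, with a log2 fold change of -0.98 (SE 0.16, edgeR adjusted p = 0.00185), and at -0.62 in KI against WT (SE 0.16, edgeR adjusted p = 0.0747). The KO value was -0.73 without WT vehicle 122 and was -1.21 (edgeR adjusted p = 0.0336) among vehicle groups and -0.81 (edgeR adjusted p = 0.134) among PFOA groups. It also passed 2-fold, at -1.07 to -1.01, without WT vehicle 107, WT PFOA 50 or 65, KO vehicle 145 or KO PFOA 52. Prdx6 was at 563 to 892 CPM in WT and 270 to 451 CPM in libraries labelled KO, with a log2 fold change of -0.81 (SE 0.15, edgeR adjusted p = 0.00454), and at -0.46 in KI against WT (SE 0.15, edgeR adjusted p = 0.191). In KO against WT, Prdx6 was -1.05 (edgeR adjusted p = 0.0519, past 2-fold) among vehicle groups and -0.62 (edgeR adjusted p = 0.282) among PFOA groups. Club cell markers moved the same way over both exposures, with a median log2 fold change of -0.71 in KO against WT. By edgeR, 2 of 3 were past an unadjusted p of 0.05. The marker median was -1.25 among vehicle groups, with 2 of 3 past that p, and -0.23 among PFOA groups, with 0 past it. The part of these markers in the Gsta3 and Prdx6 values was not tested. Of the 10 NRF2 genes, 0 were under the adjusted p of 0.2 in KO against WT in the main edgeR fit, and 2 were under an unadjusted p of 0.05.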

How the data were processed

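Lung total RNA was made into libraries with a stranded total RNA kit, and the authors used Partek Flow for trimming, STAR 2.6 alignment to mm10 and an expectation-maximization model summed to genes. The authors deposited the estimated counts of 31245 genes without normalization. Annotation release and strand use are not given in the sources used here. Counts were rounded, and 26946 genes with at least 20 counts in total were tested (4299 left out). edgeR 4.0.16 (R 4.3.3, TMM factors, quasi-likelihood) fitted 6 groups over 17 libraries, and an additive model of genotype and exposure. Benjamini-Hochberg adjustment covered every gene tested, and calls needed an adjusted p below 0.2 and over 2-fold. Intervals are at 95%. DESeq2 1.42.0, other factors and filters, covariates and left-out libraries were alternatives. The tests were tried on simulated counts. In the WT comparison edgeR called 65 of 200 genes given a 2-fold change and 160 of 200 given a 4-fold change, so many 2-fold changes were missed. Each library is labelled as a separate mouse. Exact permutation tests of WT cannot go below p = 0.1 and were not used. Coordinates and exon lengths are from GENCODE M21, and figures were drawn with matplotlib 3.10.9.

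The 10 genes and the wider lists were chosen with earlier results of these data known. All 10 genes are described by level. In a comparison, those with an unadjusted p under 0.05 are given in full and the others by intervals or ranges, and of the wider lists at most 3 genes with the smallest p under 0.05 are named. Genes given beyond this (Keap1, Nqo1 and Hmox1 by exposure, among others) were chosen after their values were seen.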

Additional observations from a re-analysis of the deposited data

How the results depend on the processing

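No paired analysis was possible because the mouse numbers in the labels are each used once. Over the 9 comparisons, 0 of the 10 genes were called under any alternative run at both thresholds. Dropping the fold threshold in the main fit gave 1, Gclc, in KI against WT. With the protein-coding share as a covariate, Gclm and Nfe2l2 were under the adjusted p of 0.2 in KO against WT. Counts over other genes moved more, as in WT, where DESeq2 called 24 genes and edgeR 0. Of 982 values of named genes, 958 kept their direction and their side of the threshold and 0 reversed. Besides the values given with the results, Gsta3 passed 2-fold in KO against WT in 6 alternatives and Slc7a5 in KI against WT lost its call in 10. The WT comparison rests on 2 vehicle libraries. Without WT vehicle 107 it called 1672 genes, 5 of the 63 wider genes among them, with the smallest edgeR adjusted p of the 10 at 0.189 for Txnrd1 (log2 fold change -0.46), and without WT vehicle 122 it called 0. Over the 3 genotypes no fit of the compared libraries alone exists, since it uses all of them. Nqo1 and Slc7a11 rest on 6 to 46 counts per library and have the widest intervals of the 10.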

Other observations

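Sex was not a comparison of the design, and its coefficient was read after the other values were seen. In the additive model with sex as a covariate (12 females, 5 males, no male KO), 0 of the 10 genes had an unadjusted p under 0.05 between males and females by edgeR, where 11 of the 26946 genes were called. The widest difference was that of Nqo1, at 0.75 higher in males on the log2 scale (SE 0.38, edgeR adjusted p = 0.989). In WT the male vehicle library had 4.09 CPM of Nqo1 and the female 1.07 CPM, and the males on PFOA had 3.80 and 2.18 CPM against 1.52 CPM in the female. The KI males had 3.18 CPM (vehicle) and 3.88 CPM (PFOA), while the females ranged from 1.16 to 5.31 CPM and so overlapped them.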
